A study of Homo sapiens with 9 samples.

Results

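Gene-dense megabases were the autosomal bins of 1 Mb, counted from the first base of each GRCh38 chromosome, that held 25 or more protein-coding gene starts of GENCODE release 44. Bins within 5 Mb of a chromosome end and bins of chromosome 6 between 28 and 34 Mb were left out, and no peak was used to choose a bin. The rule gave 103 of 2887 autosomal bins. They held 3.74% of the assembled autosomal bases, 18.4% of the protein-coding gene starts, and between 25 and 70 starts each, with a median of 32. Of the bins with 25 or more starts, 30 were set aside because they lay near a chromosome end and 4 because they lay in the chromosome 6 interval. Chromosome 19 contributed 24 of the 103 bins, chromosome 11 contributed 13, chromosome 17 contributed 12 and chromosome 1 contributed 10.

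γH2AX is the histone variant H2AX phosphorylated by the kinases ATM, ATR and DNA-PK around broken DNA and stalled replication forks. Gene-dense chromosome segments are known as GC-rich, open and early replicating, and transcription and replication pass through them within the same cell cycle. The study mapped γH2AX by ChIP-seq in an established human B-lymphocyte line (GM07027 in the paper, GM09027A in the sample labels) to ask where different forms of replication stress leave the mark. Cells were left untreated or were treated for 24 h with 0.1 μg/mL aphidicolin (APH, an inhibitor of the replicative DNA polymerases), 2 mM hydroxyurea (HU, which depletes dNTPs through ribonucleotide reductase) or 200 μM methyl methanesulfonate (MMS, which alkylates bases). Each of the 4 conditions had 2 lists of peaks, each called from 1 replicate with the input library as background. Reads of the input were not analysed here. The lists hold no expression values, so the cell type could not be checked against its markers.

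The lists held between 4327 and 79891 autosomal peaks, and the read depth behind them is unknown, so all values below are shares or densities within a list. A peak was placed by its midpoint. Every list reached down to an uncorrected p-value of 0.001. A q-value of 0.05 or less was reached by 78.5% and 60.3% of the peaks in the HU lists and by 0.164% to 1.31% in the other lists.

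The 3 windows printed here come from the strongest sites in these bins that were found in both lists of a condition. By mean fold enrichment the sites ranked 4 of 51 in untreated cells, 2 of 118 with APH and 1 of 7063 with HU. The windows are thus examples from the top of each ranking and do not describe a typical site. They are 200 bases of the GRCh38 plus strand around the centre of the overlap, in lower case with each CpG in capitals. The untreated window chr12:49826583-49826782 lay in an intron of NCKAP5L, with fold enrichments of 3.00 and 2.86 over background. The APH window chr17:8235328-8235527 covered an exon of CTC1, which encodes a subunit of the CST complex that assists telomere replication, with fold enrichments of 3.68 and 3.45. The HU window chr22:37257115-37257314 lay in an intron of RAC2, a small GTPase of blood cells, with fold enrichments of 3.23 and 4.04. The strongest MMS site overlapped the APH window at CTC1, with fold enrichments of 4.43 and 3.52.
Untreated, NCKAP5L: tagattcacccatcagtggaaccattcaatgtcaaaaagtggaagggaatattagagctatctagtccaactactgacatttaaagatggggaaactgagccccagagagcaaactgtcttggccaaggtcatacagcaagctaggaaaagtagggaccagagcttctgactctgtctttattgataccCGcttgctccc
APH, CTC1: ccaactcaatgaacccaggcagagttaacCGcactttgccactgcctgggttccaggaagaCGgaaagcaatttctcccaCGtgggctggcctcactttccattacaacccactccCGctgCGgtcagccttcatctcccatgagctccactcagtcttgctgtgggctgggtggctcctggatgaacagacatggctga
HU, RAC2: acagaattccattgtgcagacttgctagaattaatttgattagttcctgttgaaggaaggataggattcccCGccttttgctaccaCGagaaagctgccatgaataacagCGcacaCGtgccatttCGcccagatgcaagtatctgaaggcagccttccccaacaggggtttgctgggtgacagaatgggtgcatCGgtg
The GC content of these windows ran from 45% at NCKAP5L to 56.5% at CTC1, and they held between 1 and 6 CpGs.

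The comparison of gene-dense bins with the rest of the autosomes asked whether γH2AX collects where genes are packed. Gene-dense bins held more γH2AX peaks per base than the other autosomal bins in all 8 lists, by 3.05-fold on the geometric mean (log2 1.61; exact sign-flip permutation test over the 8 lists, two-sided, p = 0.0078, the smallest it can give; adjusted p = 0.0286 over the 15 exact tests of this kind). The sign-flip tests here and below treat the 8 lists as independent, although they share the cell line and the input library. They cannot tell a bias common to all lists from an excess of the mark. In untreated cells, 577 and 412 peaks lay in these bins, which was 12.1% and 9.52% of the autosomal peaks. APH gave 1649 and 1028 peaks there, or 9.34% and 7.34%. HU gave 11127 and 10377 peaks, or 13.9% and 14.8%. MMS gave 1314 and 917 peaks, or 10.8% and 8.76%. All of these shares stood against 3.74% of the bases. Per assembled Mb, the gene-dense bins held 5.60 and 4.0 peaks in untreated cells and 108 and 101 peaks with HU, and the other bins held 1.58 and 1.48 in untreated cells and 25.9 and 22.4 with HU.

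Gene-dense bins were also richer in GC than the other bins, at 47.2% against 40.7%. The ratio was smaller against bins of the same chromosome or of the same GC content. Against other bins of the same chromosome, the ratio was 2.19 ± 0.322 in untreated cells, 1.79 ± 0.198 with APH, 3.24 ± 0.066 with HU and 2.18 ± 0.155 with MMS (mean ± SD, n = 2 lists). Against other bins of the same GC content, in classes of 1 percentage point, it was 1.09 ± 0.145, 0.950 ± 0.081, 1.93 ± 0.036 and 1.26 ± 0.070 in the same order. At equal GC content the mean over the 8 lists was 0.33 on the log2 scale and no longer passed the test (exact sign-flip permutation test, p = 0.0547). The 2 HU lists, at 1.91 and 1.96, stood apart from the other 6 lists, which lay between 0.893 and 1.31. The comparison bins included the 30 bins set aside near chromosome ends, whose GC content was 52.5%. Those held 5.97 and 5.17 times the autosomal density in untreated cells and 2.17 and 2.45 times with HU. How far they moved the ratios at equal GC content was not tested.

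**Figure D1:**
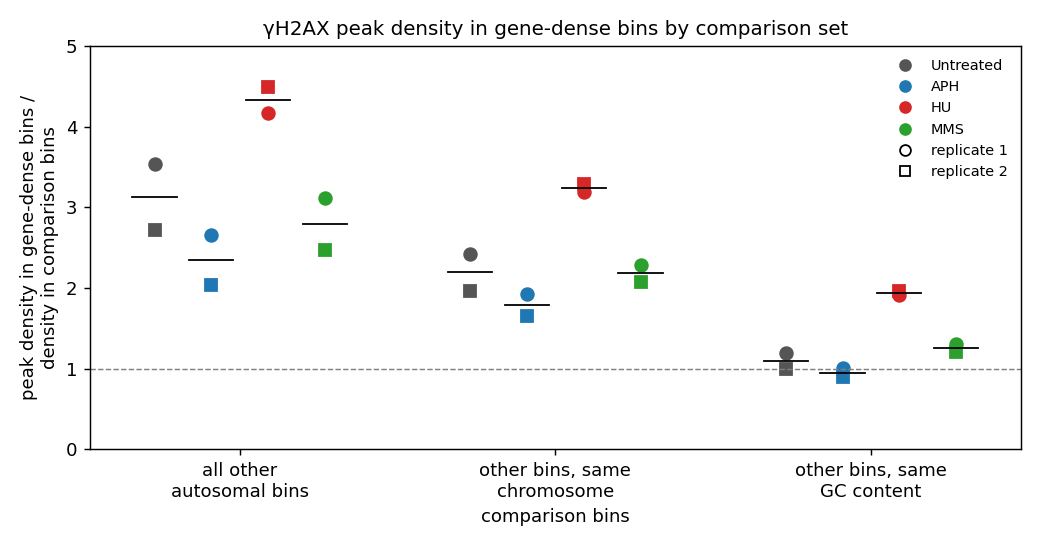
Peak density in gene-dense bins divided by the density in 3 sets of comparison bins (x axis), for each of the 8 lists. Circles and squares are replicates 1 and 2, black lines their means and the dashed line a ratio of 1. The ratio against all other autosomal bins ran from 2.04 to 4.49 and that against bins of the same GC content from 0.893 to 1.96, with the HU lists highest in each set.

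Peak density rose stepwise with the number of gene starts in a bin, in every list. Bins with no start held 0.016 to 0.141 times the autosomal density, bins with 5 to 9 starts 0.776 to 1.18 times, and bins with 15 to 24 starts 1.92 to 3.29 times. Gene-dense bins held 1.96 to 3.97 times the autosomal density. The step across the threshold differed between lists. Bins with 20 to 24 starts held 3.22 and 3.43 times the autosomal density with HU and bins with 25 to 29 starts 3.42 and 3.64 times, and the GC content of the same classes was 46.4% and 46.5%. In untreated cells the values were 2.50 and 2.08 with 20 to 24 starts and 2.91 and 2.35 with 25 to 29. For APH they were 2.39 and 1.95 against 2.44 and 1.90, and for MMS 2.49 and 2.16 against 2.65 and 2.28. APH replicate 2 was thus the list that did not rise. With APH the density no longer rose among the gene-dense bins, at 2.44 and 1.90 with 25 to 29 starts and 2.45 and 1.94 with 40 or more.

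**Figure D2:**
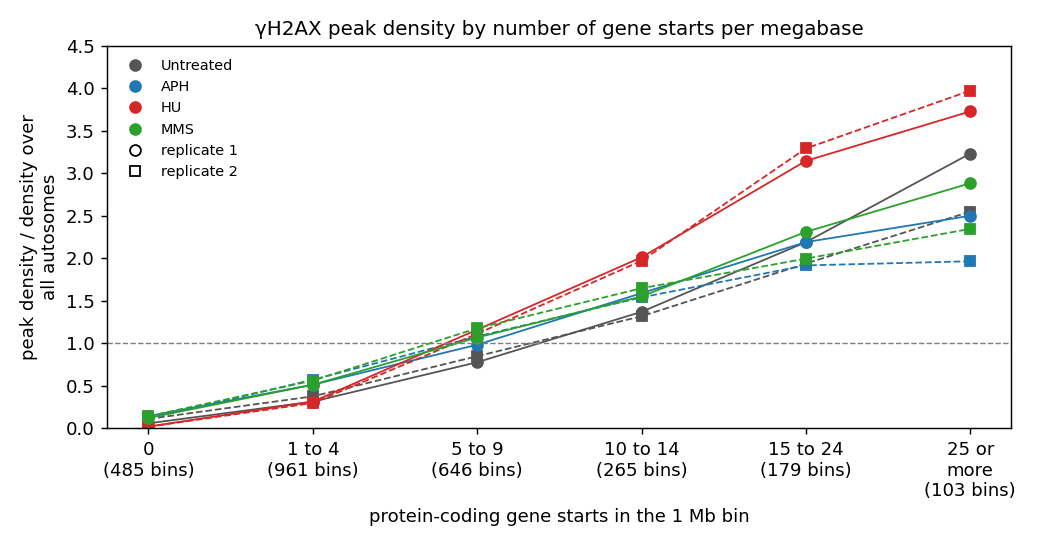
Peak density relative to all autosomes (y axis) in 6 classes of bins by their protein-coding gene starts (x axis, with the number of bins), outside chromosome ends and the chromosome 6 interval. Each line is one list, solid for replicate 1 and dashed for replicate 2. All lists lie below 0.15 at 0 starts and above 1.9 at 25 or more starts.

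The conditions were then compared for how far their peaks favoured gene-dense bins. Relative to the other autosomal bins, the density in gene-dense bins was 3.13 ± 0.585-fold in untreated cells, 2.35 ± 0.434-fold with APH, 4.33 ± 0.227-fold with HU and 2.79 ± 0.449-fold with MMS (mean ± SD, n = 2 lists). The HU lists were the highest and did not overlap the others, but the difference across the 4 conditions did not pass the test over all 2520 labelings (HU minus the other lists 0.67 on the log2 scale, exact permutation test p = 0.0667, adjusted p = 0.125). It passed when the comparison bins had the same GC content (0.83, exact permutation p = 0.0286) or the same chromosome (p = 0.0476), and when only peaks with a fold enrichment of 3 or more were kept (1.57, p = 0.0286). Against untreated cells, the difference was 0.48 for HU, -0.41 for APH and -0.16 for MMS on the log2 scale, and 2 lists against 2 cannot reach an exact permutation p below 0.333. When bins near chromosome ends and in the chromosome 6 interval were kept, the HU lists no longer stood highest: untreated replicate 1 lay at 4.37 against 3.75 and 4.09 with HU. The HU contrast was then 0.39, with an exact permutation p = 0.114 across the 4 conditions, and the difference from untreated cells was 0.02. The direction for MMS was not stable and turned with the selection of peaks.

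Peaks of every list covered a larger share of these bins than of the other autosomal bins, and HU peaks covered the most. Peaks covered 13.9% and 12.1% of the gene-dense bases with HU against 2.84% and 2.31% of the other autosomal bases. In the other 6 lists they covered between 0.229% and 0.984% of the gene-dense bases and between 0.118% and 0.428% of the other autosomal bases. Replicates of HU also shared more there: 56.1% and 61.9% of the HU peaks in gene-dense bins overlapped a peak of the other replicate, against 41.2% and 49.1% elsewhere. MMS lists also shared more in gene-dense bins, with 7.53% and 10.6% against 5.80% and 6.62% elsewhere. In untreated cells the order was the opposite, with 8.84% and 12.4% shared in gene-dense bins and 17% and 20.2% elsewhere. APH lists went the same way as untreated cells, with 7.16% and 11.4% against 10.7% and 13.5% elsewhere. Of the peaks in gene-dense bins, 59.3% in untreated cells, 51.0% with APH and 47.3% with MMS overlapped an HU peak, averaged over the pairs of lists, against 33.3%, 23.8% and 22.7% elsewhere. Those overlaps stand beside the wide cover of HU peaks in the same bins.

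HU peaks were wider in gene-dense bins than elsewhere, by 1.16 and 1.14 times at the median, and the other 6 lists lay between 0.946 and 0.999 times. Their median width was 869 and 833 bp with HU, against 748 and 730 bp elsewhere, and 509 to 553 bp in the other lists, against 519 to 563 bp elsewhere. Over the 8 lists neither the median width (log2 0.02, exact sign-flip permutation test p = 0.625) nor the median fold enrichment (log2 0.02, p = 0.0781) passed the test. The median fold enrichment was 2.77 and 2.84 with HU in gene-dense bins and 2.68 and 2.76 elsewhere.

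Where the peaks lay with respect to genes differed between conditions. Peaks were assigned to protein-coding gene bodies, which held 61.0% of the gene-dense bases, or to intergenic bases outside any annotated gene, which held 29.1%. In untreated cells the density in gene bodies was 0.741 and 0.773 times the intergenic density. APH gave 1.27 and 1.35, HU 1.10 and 1.10, and MMS 2.29 and 2.28. Untreated peaks were thus sparser in gene bodies than between genes, and MMS peaks were the most concentrated in gene bodies, with replicates far closer to each other than to any other condition. The conditions differed (MMS minus the other lists 1.15 on the log2 scale, exact permutation test p = 0.0095, the smallest it can give, adjusted p = 0.0286). Among peaks with a fold enrichment of 3 or more the difference was 1.37 and did not pass (exact permutation p = 0.133). Over all 8 lists together, the difference between gene bodies and intergenic bases did not pass (log2 0.33, exact sign-flip permutation p = 0.195). The mean HU ratio was 0.998 among the stronger 50% of peaks and 0.868 with equal numbers of the strongest peaks. It was 0.946 among peaks found in both replicates and 0.890 at a fold enrichment of 3 or more.

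With protein-coding gene bodies and all peaks, the ratio was lower in gene-dense bins of every list than in the other autosomal bins, where it ran from 1.25 and 1.29 in untreated cells to 2.42 and 2.48 with MMS. The difference was -0.37 on the log2 scale (exact sign-flip permutation test p = 0.0078, adjusted p = 0.0286), a comparison added after the values were seen. The other autosomal bins include 485 bins without a gene start, which held 0.016 to 0.141 times the autosomal density. How far those bins moved the ratio was not tested. With gene bodies of any biotype the MMS lists no longer lay lower, at 1.04 and 1.00 times the ratio of the other bins, and among peaks found in both replicates they lay higher, at 1.51 and 1.53 times. The difference over all lists did not pass among peaks found in both replicates (-0.28, exact sign-flip permutation p = 0.266) or with a fold enrichment of 3 or more (-0.14, p = 0.273).

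**Figure D3:**
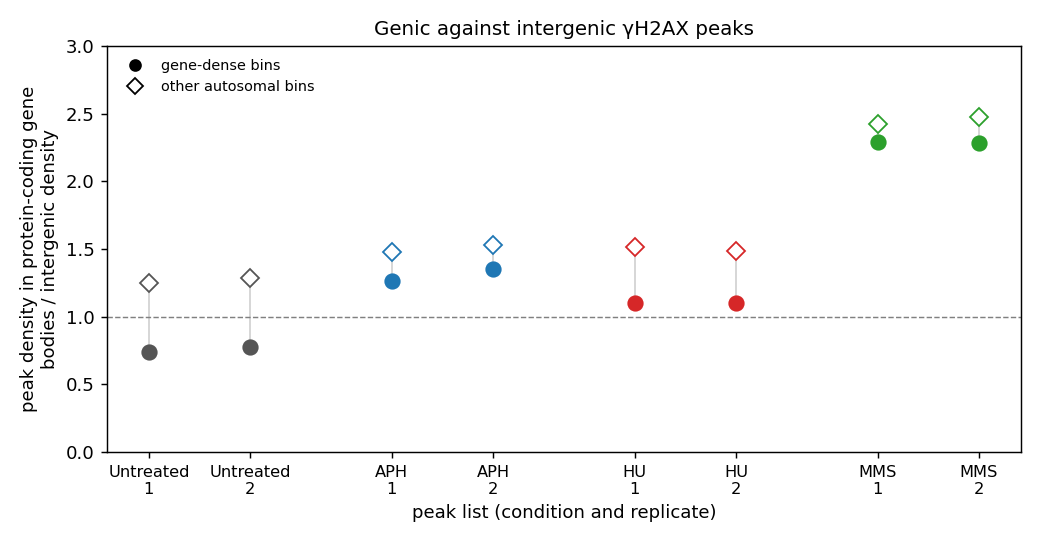
Peak density in protein-coding gene bodies divided by intergenic density (y axis) for each list (x axis), in gene-dense bins (filled circles) and in the other autosomal bins (open diamonds). The filled circles lie below the diamonds in all 8 lists, below 1 in the untreated lists and above 2 in the MMS lists.

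Immediately at gene starts peaks were scarce, and just beyond them they were frequent. Within 1 kb of a protein-coding gene start, which took 6.11% of the gene-dense bases, the density was 0.666 and 0.50 times that in the remaining bases in untreated cells, 0.530 and 0.541 with APH, 0.443 and 0.511 with HU and 0.607 and 0.537 with MMS. All 8 lists lay below 1 (log2 -0.89, exact sign-flip permutation test p = 0.0078, adjusted p = 0.0286). With a window of 5 kb the direction turned, with ratios from 1.21 to 1.69 (log2 0.52, exact sign-flip permutation p = 0.0078). The profile by distance shows both: the density relative to the whole of the gene-dense bins was 0.276 to 0.562 within 0.5 kb, 1.34 to 1.82 between 1 and 2 kb, and 0.372 to 0.685 beyond 50 kb. The difference across conditions in the ratio within 1 kb did not pass the test (exact permutation p = 0.457). In the other autosomal bins the same ratio lay between 0.704 and 1.18. The ratio in gene-dense bins was lower in all 8 lists (-0.68 on the log2 scale, exact sign-flip permutation p = 0.0078, added after the values were seen). Each ratio is taken against the remaining bases of its own set of bins. It therefore does not compare the density at starts between the 2 sets.

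**Figure D4:**
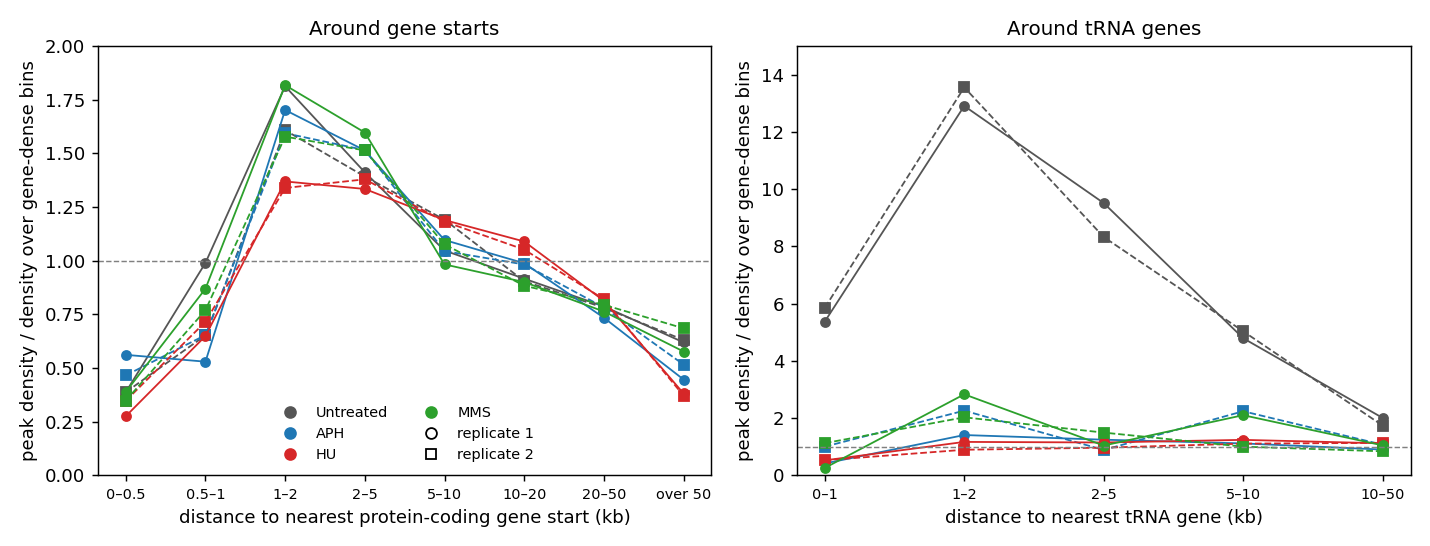
Peak density relative to the density over all gene-dense bins (y axis) by distance from the nearest protein-coding gene start (left, x axis in kb) and from the nearest tRNA gene (right, x axis in kb). Lines are the 8 lists, coloured by condition, solid for replicate 1 and dashed for replicate 2. On the left all lists lie at 0.562 or below in the nearest class and above 1.3 at 1 to 2 kb. On the right the untreated lists reach 12.9 and 13.6 at 1 to 2 kb and the treated lists stay below 3.

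Peaks were spread unevenly over the 103 bins, and with all peaks counted the untreated lists were the most uneven. The excess squared coefficient of variation, which is the variance between bins beyond counting noise divided by the squared mean, was 0.508 and 0.408 in untreated cells, 0.185 and 0.210 with APH, 0.264 and 0.302 with HU and 0.138 and 0.194 with MMS. The conditions differed (untreated minus the other lists 0.242, exact permutation test p = 0.0190, adjusted p = 0.0408). With equal numbers of the strongest peaks the order changed, with 0.488 ± 0.050 with HU and 0.461 ± 0.074 in untreated cells (mean ± SD, n = 2 lists). The difference was then 0.170 and did not pass (exact permutation p = 0.0571), among peaks with a fold enrichment of 3 or more it turned to -0.319, and among peaks found in both replicates it was 4.55. The 10 richest bins held 26.9% and 26.7% of the gene-dense peaks in untreated cells and between 17.5% and 20.9% in the treated lists. Between 2 and 13 bins had no peak, depending on the list, and at least 82 of the 103 bins exceeded the autosomal density in each list.

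The order of the bins was shared to different degrees. Over the 103 bins, Spearman's rank correlation between the relative densities of the replicates was 0.983 for HU, 0.655 for APH, 0.633 for MMS and 0.603 for untreated cells. Between lists of different conditions it ran from 0.401 to 0.721. These lists share the genome, its GC content and the input library of the peak calling, and the smaller lists hold few peaks per bin. The relative density rose with the GC content of a bin, with a rank correlation of 0.535 with HU, 0.430 with APH, 0.385 with MMS and 0.268 in untreated cells. The number of gene starts, already at 25 or more, ordered the bins little, with a rank correlation between 0.0115 and 0.192.

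By the rule for named bins, the richest bins with HU were chr15:40000001-41000000 with 217 and 197 peaks, chr17:42000001-43000000 with 208 and 204, and chr11:65000001-66000000 with 202 and 202. Their densities were 7.63, 7.61 and 7.47 times the autosomal mean. The chromosome 15 bin contains BUB1B, a kinase of the mitotic spindle checkpoint, the chromosome 17 bin STAT3, a transcription factor of cytokine signalling, and the chromosome 11 bin POLA2, a subunit of DNA polymerase alpha. With MMS the richest bins were chr1:156000001-157000000 with 22 and 27 peaks, chr17:42000001-43000000 again with 28 and 18, and chr12:57000001-58000000 with 26 and 15. With APH they were chr16:67000001-68000000 with 30 and 31 peaks, chr17:8000001-9000000 with 29 and 26, and chr3:52000001-53000000 with 33 and 22. In untreated cells they were chr6:27000001-28000000 with 29 and 12 peaks, chr17:8000001-9000000 with 20 and 17, and chr6:26000001-27000000 with 15 and 17. Their densities were 12.2, 11.2 and 9.74 times the autosomal mean, above those of any bin under a treatment.

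At the other end, chr8:7000001-8000000 and chr21:30000001-31000000 held no peak in any list. The chromosome 8 bin carries the defensin genes DEFA3 and DEFB103A, small antimicrobial peptides present in near-identical copies, and the chromosome 21 bin carries 32 genes for keratin-associated proteins of hair among its 34 starts. The study discarded reads of low mapping quality, so an empty bin with copied genes is uncertain. The olfactory receptor bin chr11:56000001-57000000 held no peak in untreated, APH and HU lists.

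Bins dominated by a tandem gene family held fewer peaks per base than the other gene-dense bins in all 8 lists. In 14 of the 103 bins one family of neighbouring, related genes made up at least 50% of the starts. Their GC content was 42.4% against 47.9% in the 89 bins without such a family, and their density with HU was 1.08 and 0.929 times the autosomal mean against 4.15 and 4.45 times. With APH the families lay at 1.28 and 1.38 and the remaining bins at 2.69 and 2.06. The 4 olfactory receptor bins, whose genes encode odorant receptors of the nose, were low in every list, with 0.384 to 0.904 times the autosomal mean. The 2 zinc finger bins of chromosome 19, which encode DNA-binding repressors, were low in untreated cells (0.288 and 0.319, on 1 peak in each list) and with HU (0.483 and 0.315). They were higher with APH (1.48 and 1.28) and MMS (1.69 and 1.58). The protocadherin bin, whose genes encode adhesion molecules of neurons, had 21 and 17 peaks with HU, at 0.725 and 0.670 times the mean, and 13 and 7 with MMS, at 2.94 and 1.84 times. With 1 to 4 bins in a family these are descriptions without a test. How far the removal of reads of low mapping quality lowered the values of bins with related genes was not tested.

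**Figure D5:**
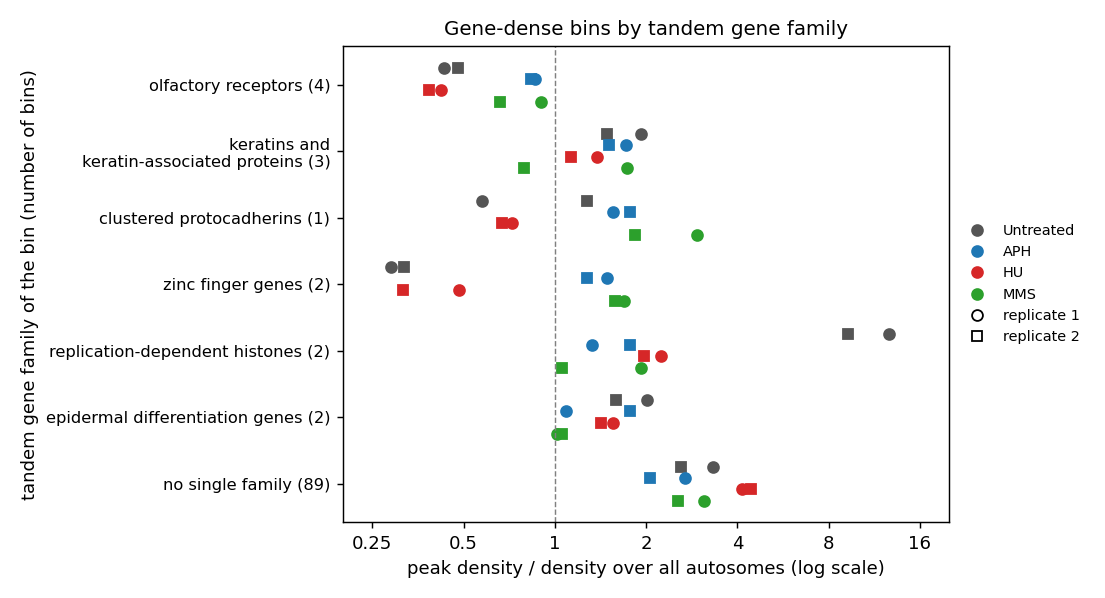
Peak density relative to all autosomes (x axis, log scale) in gene-dense bins grouped by the tandem family that makes up at least 50% of their gene starts (y axis, number of bins in parentheses). Points are the 8 lists, circles for replicate 1 and squares for replicate 2. The histone bins stand at 12.7 and 9.24 in the untreated lists and below 2.3 in the others, and the bins without a family stand at 4.15 and 4.45 with HU.

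The 2 histone bins of chromosome 6, which carry the replication-dependent histone genes that package newly made DNA, stood apart in untreated cells. They held 44 and 29 untreated peaks, 17 and 18 with APH, 130 and 100 with HU and 17 and 8 with MMS. Relative to the autosomal density this was 12.7 and 9.24 in untreated cells, 1.33 and 1.77 with APH, 2.24 and 1.97 with HU and 1.92 and 1.05 with MMS. They therefore took 7.63% and 7.04% of the untreated peaks in gene-dense bins and at most 1.75% in any treated list. Without these bins the spread in untreated cells was 0.367 and 0.318 and the difference across conditions was 0.129 (exact permutation p = 0.0190).

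The same bins hold clusters of tRNA genes, which RNA polymerase III transcribes, and untreated peaks lay close to them. Of the autosomal tRNA genes in RefSeq (GRCh38.p14), 178, or 40.5%, lay in 16 of the gene-dense bins, with 100 in the 2 histone bins. Within 5 kb of a tRNA gene lay 49 and 34 untreated peaks in gene-dense bins, or 8.49% and 8.25% of them, on 0.942% of the bases. APH had 16 and 12 such peaks (0.970% and 1.17%), HU 101 and 80 (0.908% and 0.771%) and MMS 15 and 13 (1.14% and 1.42%). As a density against the remaining gene-dense bases this was 9.76 and 9.45-fold in untreated cells, 1.03 and 1.24-fold with APH, 0.963 and 0.817-fold with HU and 1.21 and 1.51-fold with MMS. The groups of untreated and treated lists did not overlap, and the conditions differed (untreated minus the other lists 3.12 on the log2 scale, exact permutation test p = 0.0190, adjusted p = 0.0408). This comparison was added after the values of the bins were seen. It remained in direction without the histone bins, at 9.60 and 11.1-fold in untreated cells and 1.36 to 3.24-fold in the treated lists (exact permutation p = 0.0095).

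In the histone bins, 31.2% of the bases lay within 5 kb of a tRNA gene, and so did 72.7% and 69.0% of the untreated peaks but only 31.0% to 38.9% of the peaks of any treated list. Of the 51 untreated sites in gene-dense bins that were found in both lists, 16 lay within 5 kb of a tRNA gene. The bins with the next most tRNA genes were chr1:161000001-162000000 with 32, chr17:8000001-9000000 with 18 and chr14:20000001-21000000 with 14. Their untreated densities were 4.61 and 6.37, 11.5 and 10.8, and 5.77 and 5.10 times the autosomal mean. Proximity to tRNA genes was not particular to gene-dense bins: in the other autosomal bins the untreated density within 5 kb was 13.4 and 13.7-fold, and that of the treated lists 2.14 to 4.11-fold. The difference across conditions was 2.26 there (exact permutation test p = 0.0286). In absolute number the HU lists, which held many more peaks, had more peaks near tRNA genes in gene-dense bins than the untreated lists.

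Single bins were compared between each treatment and untreated cells by their share of the list with limma over 1856 autosomal bins, of which 100 were gene-dense. At an adjusted p of at most 0.05, 1 gene-dense bin was higher with APH, against 2.16% of all bins tested, and 4 were lower, against 0.862%. With HU 9 were higher, against 6.9%, and 4 lower, against 4.26%. With MMS 4 were higher, against 7.33%, and 3 lower, against 1.62%. The shares with HU were close to those over all bins. With APH and MMS the shares called higher lay below and those called lower lay above the shares over all bins, on 1 to 4 bins in each case, and these differences were not tested. The median log2 difference of the gene-dense bins was -0.26 for APH, 0.63 for HU and 0.17 for MMS, against 0.52, 0.43 and 0.60 over all bins tested. The calls rested on single lists. Without untreated replicate 1 they numbered 21, 39 and 23 for APH, HU and MMS, and without untreated replicate 2 they numbered 19, 24 and 19. Without either APH list no APH bin was called, without either HU list no HU bin and only 1 APH and 1 MMS bin, and without MMS replicate 2 no MMS bin.

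The named bins that fell hold clusters of tRNA genes, which was not tested as a relation. chr6:26000001-27000000 fell by 2.47 with APH, 1.87 with HU and 2.38 with MMS on the log2 scale (SE 0.31 each, limma adjusted p = 0.0121, 0.0107 and 0.0071). chr6:27000001-28000000 fell by 2.77, 2.61 and 3.17 (SE 0.57, limma adjusted p = 0.0418, 0.0273 and 0.0228). chr17:8000001-9000000 fell by 1.18 with APH, 1.23 with HU and 1.39 with MMS (SE 0.20, limma adjusted p = 0.0286, 0.0092 and 0.0102), and chr14:20000001-21000000 fell by 2.17 with APH (SE 0.38, limma adjusted p = 0.0307). The relation had exceptions. chr1:161000001-162000000, with 32 tRNA genes, was called in no comparison (-1.40 with APH, -0.21 with HU and -1.03 with MMS, limma adjusted p = 0.0524, 0.671 and 0.0751), and chr11:57000001-58000000, with no tRNA gene, fell by 1.19 with HU (SE 0.26, limma adjusted p = 0.0278). Each of the 3 comparisons used the same 2 untreated lists, so these are not separate observations of the fall.

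Among the bins called higher, 2 of those named had no untreated peak. They passed the filter on low counts through the treated lists, so their fitted differences depend on the prior of 2 peaks and are not given. chr19:43000001-44000000, with PLAUR, the urokinase receptor, had 0 and 0 untreated peaks, 9 and 3 with APH, 73 and 65 with HU and 6 and 10 with MMS. chr11:124000001-125000000, with olfactory receptors, had 0 and 0 untreated peaks, 10 and 7 with APH, 31 and 21 with HU and 6 and 2 with MMS. The other named bins had at most 1 untreated peak in a list. chr12:55000001-56000000 had 0 and 1 untreated and 61 and 59 HU peaks, and chr7:99000001-100000000 had 1 and 1 untreated and 13 and 12 MMS peaks. Outside the named bins, chr12:10000001-11000000 was also called higher with HU without an untreated peak. It had 0 and 0 untreated and 19 and 18 HU peaks.

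Of the 3509 protein-coding genes that start in gene-dense bins, 62.6% and 61.3% had an HU peak midpoint in the gene body, against 8.78% and 6.53% in untreated cells, 25.1% and 18.1% with APH and 23.7% and 18.8% with MMS. Genes with a peak were longer than the median of 11.9 kb, at 17.4 and 17.3 kb with HU and 23 to 27 kb in the other lists. The number of midpoints in a gene was not scaled by its length or by the length of the list.

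The genes with the most peaks were mostly long ones. PEBP4, a lipid-binding protein of 287 kb on chromosome 8, had 58 and 49 HU peaks, 4 and 3 untreated, 9 and 2 with APH and 5 and 4 with MMS. RYR1, the calcium release channel of skeletal muscle, had 28 and 29 HU peaks and NMT1, which attaches myristate to proteins, 30 and 26. RSKR had 32 and 34 HU peaks, and the gene ENSG00000264324 had 31 and 28. A midpoint in overlapping genes was counted for each of them. With MMS the leading genes included CYSTM1 with 6 and 5, BABAM2, a subunit of the BRCA1-A repair complex, with 5 and 5, CTC1 with 5 and 5, and GATAD2A, a subunit of the NuRD complex, with 7 and 3. With APH they were PIPOX with 8 and 5 peaks, DOCK3 with 7 and 5, SUFU, an inhibitor of Hedgehog signalling, with 8 and 4, PEBP4 with 9 and 2, and POC1A, a centriole protein, with 9 and 2. DOCK3, 709 kb long, had 0 and 2 HU peaks.

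CTC1 had peaks in every list, with 6 and 3 in untreated cells, 5 and 4 with APH, 6 and 6 with HU and 5 and 5 with MMS. Its count stayed between 3 and 6 in lists of 4327 to 79891 autosomal peaks. The gene lies at chr17:8224815-8248058 in the bin with 18 tRNA genes. The strongest shared sites of APH and of MMS in gene-dense bins lay in it, and the second strongest of untreated cells. The other genes that led in untreated cells were PEBP4, RSKR with 3 and 2 peaks, TMEM8B with 5 and 0 and CIZ1, a nuclear protein of DNA replication, with 1 and 3.

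Genes of DNA replication and repair that start in gene-dense bins were met most often with HU. Of 16 such genes from a list of 78, 15 had a peak in both HU lists, 7 in both MMS lists, 2 in both APH lists and 0 in both untreated lists. Over all genes starting in these bins the shares were 55.3%, 9.35%, 9.60% and 2.22%, and the median length was 31.2 kb for the list against 11.9 kb for all. TP53BP1, a mediator of the response to DNA breaks, had 9 and 9 HU peaks and 2 and 3 with MMS. POLA2 had 10 and 9 with HU and 2 and 1 with MMS. TIMELESS, a fork protection factor, had 9 and 9 with HU and 0 and 1 with MMS. ERCC1, a subunit of a repair nuclease, had 20 and 15 with HU and 3 and 3 with APH.

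Of 16 B-cell genes from a list of 50, 12 (75%) had a peak in both HU lists and 2 (12.5%) in both APH lists. None had a peak in both lists of untreated or MMS-treated cells. Over all genes starting in these bins the shares were 55.3% with HU, 9.60% with APH, 9.35% with MMS and 2.22% in untreated cells. The median length was 12 kb for the list and 11.9 kb for all, and the difference in shares was not tested. CD22, an inhibitory receptor of B cells, had 7 and 5 HU peaks, CD72 7 and 6, and CXCR5, the receptor that guides B cells into follicles, 5 and 3. CD72 also had 2 and 3 peaks with APH. CD37 and MS4A1, surface proteins by which B cells are known, had 1 HU peak in each list and none elsewhere.

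Short sequence features of the peaks were counted in the 300 bases around their centres and in all tiles of 300 bases of the same bins, on both strands. A run of 10 A or T was in 14.9% of the gene-dense tiles, in 6.24% and 6.31% of the untreated peaks and in 13.9% and 13.5% of the HU peaks there. APH and MMS peaks held it in 6.32% to 7.42%. A piece of the Alu element, GGCTGAGGC, was in 13.9% of the gene-dense tiles, in 15.1% and 14.9% of the HU peaks and in 6.93% to 10.02% of the peaks of the other lists. A second piece, GTTCGAGAC, was in 3.95% of the tiles, in 5.14% and 4.63% of the HU peaks and in 1.91% to 3.38% of the others. HU peaks held these letters at 0.903 to 1.30 times the rate of the tiles and the peaks of the other lists at 0.418 to 0.856 times, as a description without a test. In the other autosomal bins, against the tiles there, the values were 1.11 to 2.07 times with HU and 0.469 to 1.15 times in the other lists. Tiles were not filtered by mapping quality, as the reads behind the peaks were, and the effect of this was not tested. The pieces do not overlap each other. The median GC content of the 300 bases was 47.7% to 49.7% in gene-dense bins and 43.7% to 47.3% elsewhere.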

How the data were processed

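γH2AX ChIP-seq peak lists of 8 libraries were analysed. Reads had been aligned by the authors with Bowtie2 (GRCh38), filtered with SAMtools for mapping quality and duplicates, and used for broad peak calls in MACS2, separately for each replicate with input as background. Deposited values were a score, a fold enrichment (ratio), a −log10 p-value and a −log10 q-value per peak. The score was not used. Read numbers are not part of the lists, so depth is unknown, and precision was judged from the spread between lists alone, which come from independent treatments and ChIPs. Groups and replicate numbers follow the labels.

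Peaks were placed by midpoint, and densities used assembled bases. Values per list were tested by exact sign-flip or label permutation (Python 3.11.15), two-sided, with Benjamini-Hochberg adjustment over 15 tests. In tests across conditions the p is for all 4 conditions together. The value beside it is the contrast of the condition that lay furthest from the other lists with all peaks. Bin shares were fitted with limma 3.58.1 (prior of 2 peaks, mean of at least 1 peak, 500 kb assembled) after tests on simulated lists. The bins, gene lists and alternatives were chosen with earlier results of these data known. Named bins were the 3 highest and 2 lowest per condition and the 3 largest called changes in each direction, and named genes the 5 with most peaks per condition. tRNA genes came from RefSeq (GRCh38.p14). Some named genes and 1 sequence are not reported here.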

Additional observations from a re-analysis of the deposited data

Results flagged for a closer look

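The following results differed between the conditions by the exact test across all lists. The ratio of genic to intergenic density in gene-dense bins was higher under MMS than in the other lists by 1.15 on the log2 scale. The spread over gene-dense bins was higher in untreated cells than in the other lists by 0.242. The density of peaks within 5 kb of tRNA genes, a comparison added after the bins were seen, was higher in untreated cells than in the other lists by 3.12 on the log2 scale.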

How the results depend on the processing

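The excess in gene-dense bins kept its direction under every alternative tried and missed the threshold only against bins of the same GC content (log2 0.33, exact p = 0.0547). By exact permutation, the density across conditions passed with equal numbers of the strongest peaks (1.17, p = 0.0381) and a fold enrichment of 3 or more (1.57). By exact permutation it also passed with covered bases (1.15, p = 0.0381), the same chromosome (0.67, p = 0.0476) and the same GC content (0.83). Among peaks found in both replicates the contrast was 1.30 (exact permutation p = 0.0286). That test cannot decide, because the selection makes the replicates of a condition alike by construction. The density contrast fell to 0.39 (exact permutation p = 0.114) with bins near chromosome ends and on 6p kept. HU minus untreated fell there from 0.48 to 0.02. The replicate block left the density contrast at 0.67 with an exact permutation p = 0.0417. The replicate numbers share no batch in the labels, and deviations of same-numbered lists correlated between -0.0689 and 0.0905, so they were not taken as pairs. The genic difference missed the threshold at a fold enrichment of 3 or more (1.37), the spread with equal numbers (0.170) and turned at a fold enrichment of 3 or more (-0.319), and peaks near tRNA genes missed it within 10 kb (2.79, exact p = 0.0571). The genic ratio against the rest missed it among shared peaks (-0.28) and at a fold enrichment of 3 or more (-0.14). MMS minus untreated turned among the stronger 50% of peaks (0.12), equal numbers (0.0016), shared peaks (1.19), a fold enrichment of 3 or more (0.74), covered bases (0.38) and the same GC content (0.20), and ran from -0.35 to 0.0328 with one list left out. Peak width against the rest turned among the stronger 50% (-0.013), equal numbers (-0.018), shared peaks (-0.21) and a fold enrichment of 3 or more (-0.12), and ran from -0.0083 to 0.034 with one list left out. Fold enrichment turned among shared peaks (-0.0095) and ran from 0.011 to 0.018 with one list left out. Starts turned within 5 kb (0.52).

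Gene-dense bins called for APH, HU and MMS numbered 0, 2 and 0 with equal numbers, 70, 93 and 68 among shared peaks, whose replicates are alike by construction, and 0, 20 and 0 at a fold enrichment of 3 or more. They numbered 9 for APH with a prior of 0.5 peaks and 3 with the replicate block, 8 for HU without a filter, 20 for HU and 12 for MMS among the stronger 50%, and 3 for MMS with voom weights. With one list left out they ran from 0 to 21, 0 to 39 and 0 to 23, highest without untreated replicate 1. The cause of these changes was not tested. The ratio near gene starts could not be computed for some selections, where a list had no peak within 1 kb. Depth, which the lists do not give, limits every comparison of peak numbers, and most peaks outside HU did not reach a q-value of 0.05.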
